A study of Mus musculus with 6 samples.

Results

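Chemokine ligands are small secreted proteins that direct the movement of white blood cells, and their transcripts were followed here in 6 polyA RNA libraries of mouse liver. Members were all rows of the deposited FPKM table (fragments scaled by gene length and by library total) whose symbol starts with Ccl, Cxcl, Cx3cl or Xcl followed by a digit, without names that hold a hyphen. The rule took 45 of 55573 genes, with 40 distinct symbols. The libraries labelled DKO (3 libraries) came from generation 3 mice of genotype mTR-/-Wrn-/-, which lack the telomerase RNA gene and the RecQ helicase gene Wrn. The libraries labelled p21TKO (3 libraries) came from generation 3 mice of genotype p21-/-mTR-/-Wrn-/-, which lack the cyclin-dependent kinase inhibitor p21 (Cdkn1a) as well. Both groups therefore share the mTR and Wrn deletions, and a group without them was not analysed here. Feed is given as normal, the sample titles carry the tag 2M, which the labels do not spell out, and they name neither strain nor sex. The stated question was which pathways change when p21 is lost. No label ties each library to its own mouse, so the p-values reflect the spread among these libraries, part of which may be technical. Both groups held libraries with and without transcripts from the Y chromosome, so neither group came from 1 mouse alone.

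FPKM were computed against between 19363285 and 27061291 reads per library. Hepatocyte markers were abundant throughout, with Alb, the albumin gene, between 24412 and 37503 FPKM. Cdkn1a stood at 0.761, 1.79 and 0.405 FPKM in DKO replicates 1 to 3 and at 1.41, 11 and 6.5 FPKM in p21TKO replicates 1 to 3, so the targeted gene was not lower in the libraries labelled p21TKO. Which exons were removed is not stated in the labels, so this is no check of the deletion, and every direction below rests on the labels. Transcripts from the Y chromosome were found in 2 DKO libraries (replicates 2 and 3) but in 1 p21TKO library (replicate 1), so the sexes were unevenly spread over the groups. p21TKO replicates 2 and 3 were apart from the other 4 libraries in many of the values below.

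Chemokines are named for the spacing of their first cysteines, which gives the CC, CXC, CX3C and C classes. Most are made on demand by tissue and immune cells and bind heptahelical receptors on particular leukocytes. In liver, CXC chemokines that act on CXCR2 draw neutrophils, CXCR3 ligands draw activated T cells, CC chemokines draw monocytes and other myeloid cells, and a few, such as Cxcl12, are made constantly by stromal cells.

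No chemokine ligand passed the test between the genotypes. The 12 members with a mean of at least 1 FPKM were tested on log2(FPKM + 1) in a limma fit over all 9538 genes at that level, and their adjusted p lay between 0.523 and 0.989. In that fit 0.0315% of all genes were called higher and 0.0419% lower in p21TKO. Before adjustment 1 of the 12, Ccl24, was under 0.05 (limma, unadjusted 0.0448), against 4.09% of all genes higher and 5.29% lower. limma voom on reads recovered from the FPKM also called 0 of the 12, where it called 0.0105% of all genes lower and none higher. None of the 12 had groups that did not overlap, against 15.4% of all genes (6.93% higher and 8.49% lower in p21TKO). Of the 12, 6 had higher and 6 lower values in p21TKO, with a median log2 difference of 0.01 beside 0.00 for all genes tested. The absence of calls is no evidence of equal levels, because several ligands varied more than 10 times within p21TKO.

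Leaving out p21TKO replicate 1 gave calls for Ccl6, Cxcl13 and Ccl24, all higher in p21TKO (limma adjusted p = 0.00907, 0.00436 and 0.0161). That is 3 of 12 members, where the same fit called 2.36% of all genes higher and 2.83% lower. Without that library both remaining p21TKO libraries lack Y-linked transcripts, as does 1 of the 3 DKO libraries.

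**Figure D1:**
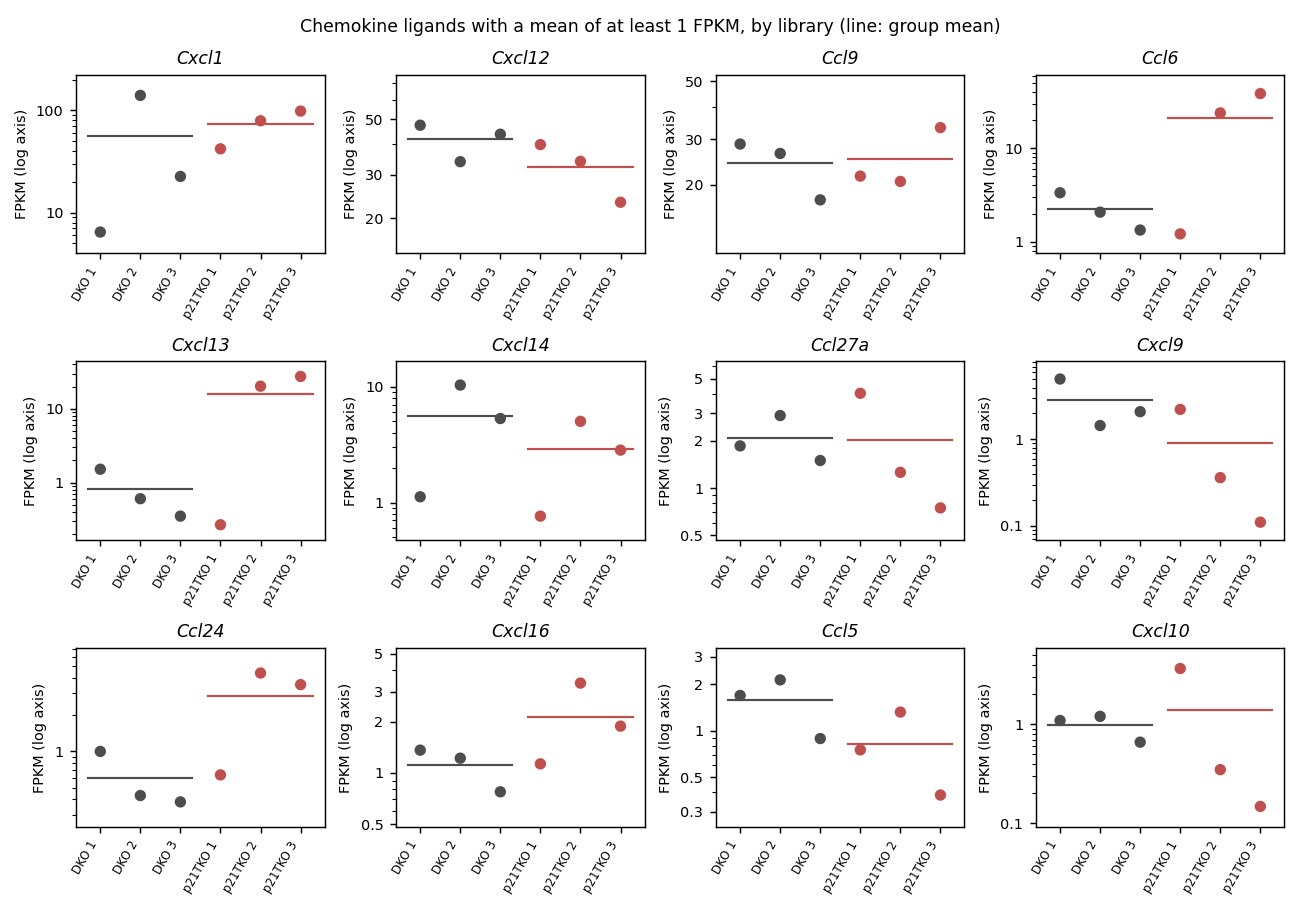
FPKM of the 12 chemokine ligands with a mean of at least 1 FPKM, 1 panel per gene with the 6 libraries along the x axis, DKO in grey and p21TKO in red, on a log y axis with a line at each group mean. Ccl6, Cxcl13 and Ccl24 are high in p21TKO replicates 2 and 3 and low in p21TKO replicate 1, while Cxcl9 and Cxcl10 are lowest in replicates 2 and 3.

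The ligand pool was dominated by 3 genes. Cxcl1, Cxcl12 and Ccl9 together made up 80.2%, 88.9% and 84.0% of the summed ligand FPKM in DKO replicates 1 to 3 and 83.8%, 68.2% and 66.1% in p21TKO replicates 1 to 3. The summed FPKM of all 45 genes was 103, 226 and 99.5 in DKO and 123, 196 and 234 in p21TKO. The group ranges of the sum overlapped, and the highest DKO library owed 62.2% of its sum to Cxcl1 alone.

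Cxcl1, the main mouse CXCR2 ligand and a strong attractant of neutrophils, was the most abundant member on average and the least steady in DKO (ENSMUSG00000029380, chromosome 5, 90891241 to 90893115, GRCm38). It stood at 6.46, 140.2 and 22.6 FPKM in DKO replicates 1 to 3 and at 42.1, 79.2 and 98.5 FPKM in p21TKO replicates 1 to 3. DKO held both the lowest and the highest library, so the groups overlapped fully. The DKO mean was 56.4 ± 73.0 FPKM and the p21TKO mean 73.3 ± 28.6 FPKM (SD, n = 3 each). The log2 difference was 1.26 (SE 1.01, limma adjusted p = 0.667), and it moved to 2.40 without DKO replicate 2 and to 0.28 without DKO replicate 1, with no call in either case (limma adjusted p = 0.461 and 0.957). The other CXCR2 ligands under the naming rule were nearly silent. Cxcl2 had 0, 10 and 2 reads in DKO and 16, 2 and 14 in p21TKO, Cxcl5 had at most 2 reads in a library, and Cxcl3 had 0 in all 6.

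Cxcl1, Cxcl2 and Cxcl3 lie in 1 cluster on chromosome 5 and share the same 10 letters upstream of their starts. A form of the site bound by NF-kB, the transcription factor that TNF and IL-1 signals activate, was searched on both strands as GGGA, any base, then TTTCC, from 250 bases before to 50 after each gene start in the RefSeq table (GRCm38.p6). It occurred in 135 of 32851 such windows (0.411%) and in those of 3 of the 27 member symbols that had a window. The stretches around the match are shown because they compare 1 abundant gene with 2 scarce neighbours, a choice made after the matches were seen. Capitals mark the match, which begins 71 bases before the start in Cxcl1, 97 in Cxcl2 and 73 in Cxcl3.
Cxcl1: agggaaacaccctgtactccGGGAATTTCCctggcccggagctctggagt
Cxcl2: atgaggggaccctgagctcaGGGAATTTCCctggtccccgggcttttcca
Cxcl3: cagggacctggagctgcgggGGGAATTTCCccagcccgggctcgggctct
The match reads the same in all 3 genes, and of the 50 bases shown Cxcl1 shares 29 with Cxcl2 and 25 with Cxcl3. These counts include the 10 letters of the match. The search fixed all but 1 of those letters, so their sharing follows largely from the search. The whole stretch before the Cxcl1 start, on the plus strand at chr5:90890995-90891244, reads as follows.
Cxcl1: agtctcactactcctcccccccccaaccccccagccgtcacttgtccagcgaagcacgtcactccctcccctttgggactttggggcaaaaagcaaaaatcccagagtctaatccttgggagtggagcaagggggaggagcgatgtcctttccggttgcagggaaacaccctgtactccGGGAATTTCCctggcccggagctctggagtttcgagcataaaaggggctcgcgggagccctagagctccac
A match describes the letters only, and binding was not analysed here.

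Neutrophil markers stood beside Cxcl1 as follows. Their summed FPKM (13 genes, all above 0 in some library) was 10.8 to 29.5 in DKO and 25.0, 559 and 222 in p21TKO replicates 1 to 3. S100a8, a neutrophil calcium-binding protein gene, stood at 1.56, 8.10 and 3.96 FPKM in DKO and 8.04, 182 and 77.5 FPKM in p21TKO, and was not called (limma adjusted p = 0.523). All 7 neutrophil markers that were tested had higher values in p21TKO and 0 were called, while 5 were called higher without p21TKO replicate 1, where 2.36% of all genes were called higher. DKO replicate 2, with the highest Cxcl1, had the highest DKO neutrophil sum but one far under those of p21TKO replicates 2 and 3. In such whole-tissue RNA, more cells of a type and more RNA per cell cannot be told apart, and the part of neutrophils in the Cxcl1 values was not tested.

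The CXCR3 ligands Cxcl9 and Cxcl10, which interferon induces and which attract activated T and NK cells, were lowest in p21TKO replicates 2 and 3. Cxcl9 (ENSMUSG00000029417, chromosome 5, 92321347 to 92328079) stood at 5.02, 1.45 and 2.10 FPKM in DKO and at 2.23, 0.361 and 0.110 FPKM in p21TKO, with 364, 94 and 141 reads against 130, 25 and 9. Only p21TKO replicate 1 reached the DKO range. The log2 difference was -1.08 (SE 0.49, limma adjusted p = 0.531), and without p21TKO replicate 1 it was -1.54 (SE 0.38, limma adjusted p = 0.074), still no call.

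Cxcl10, whose gene lies 18.56 kb from Cxcl9 (ENSMUSG00000034855, chromosome 5, 92346638 to 92348889), stood at 1.09, 1.2 and 0.659 FPKM in DKO and at 3.65, 0.348 and 0.148 FPKM in p21TKO. The p21TKO libraries lay on both sides of DKO, replicate 1 above and replicates 2 and 3 below, and the log2 difference was -0.03 (SE 0.52, limma adjusted p = 0.989). Cxcl11, the neighbour 10.65 kb further on, is annotated as a polymorphic pseudogene in GENCODE M21 and had 8 to 41 reads per library, the most in DKO replicate 1, as for Cxcl9. The exons of Cxcl10 overlap those of Art3 on the other strand by 133 bases, and Art3 averaged 0.206 FPKM.

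A form of the interferon-stimulated response element, GAAA, any 2 bases, then GAAA, was searched on both strands and found in the windows of 3 of the 27 member symbols and in 1131 of the 32851 windows (3.44%). Among the tested members it occurred in Cxcl10 and Cxcl14, 2 of the 9 tested members with a window. Both stretches before the start are shown with the match in capitals, because the 2 genes hold the same motif and differ in their values. Cxcl10 lies on the minus strand at chr5:92348890-92349139 and its match begins at position -213. Cxcl14 lies on the minus strand at chr13:56296552-56296801 and its match begins at position -172.
Cxcl10: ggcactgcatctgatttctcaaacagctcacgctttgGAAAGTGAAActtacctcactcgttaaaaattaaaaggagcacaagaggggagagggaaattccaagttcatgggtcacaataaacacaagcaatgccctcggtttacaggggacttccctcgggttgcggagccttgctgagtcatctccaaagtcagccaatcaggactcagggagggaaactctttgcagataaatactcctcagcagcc
Cxcl14: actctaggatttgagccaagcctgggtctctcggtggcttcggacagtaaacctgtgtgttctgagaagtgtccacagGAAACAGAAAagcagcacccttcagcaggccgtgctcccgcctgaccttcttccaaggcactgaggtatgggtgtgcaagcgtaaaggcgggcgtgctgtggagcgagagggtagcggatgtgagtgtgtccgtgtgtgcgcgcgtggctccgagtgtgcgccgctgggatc
Cxcl9 held no match in its window, which says only that these letters are not there.

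The summed level of interferon response genes was also lowest in p21TKO replicates 2 and 3, which held the lowest values of 7 of the 14 genes. The 14 interferon response genes summed to 101, 54.3 and 52.8 FPKM in DKO and to 74.5, 36.5 and 22.7 FPKM in p21TKO. Of the 12 tested, 10 had lower values in p21TKO and 0 were called (median log2 difference -0.30, limma adjusted p from 0.547 to 0.983). Without p21TKO replicate 1, 2 of the 12 were called lower, among them Ifit3, an interferon-induced antiviral gene at 10.9, 5.99 and 6.32 FPKM in DKO and 9.53, 1.62 and 1.14 FPKM in p21TKO (-1.84, limma adjusted p = 0.0224), where 2.83% of all genes were called lower. The 9 T and NK cell markers, none of which reached a mean of 1 FPKM, summed to 3.60, 3.47 and 2.24 FPKM in DKO and to 1.35, 1.51 and 0.743 FPKM in p21TKO. Their sums did not overlap between the groups, while Cxcl9 did. Taken singly, Cd3d, Cd3e, Cd8a, Klrb1c, Nkg7 and Trac were lower in p21TKO with no overlap, while Cd4, Gzma and Ncr1 overlapped. Of all tested genes, which are single genes at higher levels, 8.49% showed no overlap in that direction. No T and NK cell marker had more than 30 reads in a library. The part of T cells or interferon in the Cxcl9 and Cxcl10 values was not tested.

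Ccl5, which T and NK cells make, stood at 1.69, 2.13 and 0.891 FPKM in DKO and at 0.753, 1.32 and 0.385 FPKM in p21TKO (ENSMUSG00000035042, chromosome 11, 83525778 to 83530518). Only p21TKO replicate 2 lay inside the DKO range, and the log2 difference of -0.50 (SE 0.27) was not called (limma adjusted p = 0.568).

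Ccl6 and Ccl9, adjacent genes for related CCR1 ligands made by myeloid cells, had different values. Ccl6 (ENSMUSG00000018927, chromosome 11, 83587882 to 83593087) stood at 3.34, 2.07 and 1.33 FPKM in DKO and at 1.21, 24.0 and 38.7 FPKM in p21TKO. p21TKO replicate 1 lay just under the DKO range and replicates 2 and 3 far above it. The means were 2.25 ± 1.02 and 21.3 ± 18.9 FPKM (SD, n = 3 each), a ratio of 9.48, and the log2 difference was 2.05 (SE 1.03, limma adjusted p = 0.546). Without p21TKO replicate 1 it was 3.33 (SE 0.33).

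Ccl9, 9.24 kb from Ccl6 and on the same strand (ENSMUSG00000019122, chromosome 11, 83572919 to 83578636), stood at 28.7, 26.4 and 17.5 FPKM in DKO and at 21.6, 20.6 and 33.2 FPKM in p21TKO. The groups overlapped and differed by 0.05 on the log2 scale (SE 0.29, limma adjusted p = 0.960), with a sign that turned in some alternatives. Per length, Ccl6 exceeded Ccl9 in p21TKO replicates 2 and 3, whereas in DKO Ccl9 was the higher of the pair in every library. The difference between the 2 genes in their response was not tested.

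The remaining monocyte and macrophage CC chemokines were too low for the test. Ccl2, the CCR2 ligand that calls monocytes from the blood, fell just outside the level needed for the test with a mean of 0.952 FPKM, while Cxcl10, at 1.18 FPKM, was the lowest member inside it. Ccl2 stood at 0.439, 1.14 and 0.316 FPKM in DKO and at 2.22, 0.612 and 0.974 FPKM in p21TKO, with the highest value in p21TKO replicate 1 and the groups overlapping. Ccl7, its neighbour on chromosome 11, had 0, 1 and 1 reads in DKO and 5, 2 and 6 in p21TKO. Ccl3 had at most 8 reads, Ccl4 at most 2 and Ccl12 at most 1 in a library, and Ccl8 had none.

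Cxcl13, the CXCR5 ligand that organises B cell follicles, had the largest log2 difference of the 12 with all 6 libraries and genotype as the 1 term (ENSMUSG00000023078, chromosome 5, 95956951 to 95961068). It stood at 1.52, 0.606 and 0.352 FPKM in DKO and at 0.269, 20.3 and 27.5 FPKM in p21TKO. p21TKO replicate 1 had the lowest value of all 6 libraries and replicates 2 and 3 the highest. The means were 0.826 ± 0.614 and 16.0 ± 14.1 FPKM (SD, n = 3 each), a ratio of 19.4. The log2 difference of 2.38 (SE 1.13) was not called (limma adjusted p = 0.536), and without p21TKO replicate 1 it was 3.81 (SE 0.30). B cell markers were not higher in those libraries. Their summed FPKM was 2.03 to 8.84 in DKO and 1.84 to 2.56 in p21TKO, and Cxcr5, the receptor gene, stayed between 0.0222 and 0.093 FPKM in the 6 libraries.

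Ccl24, eotaxin-2, a CCR3 ligand that macrophages make and that attracts eosinophils, was also highest in p21TKO replicates 2 and 3 (ENSMUSG00000004814, chromosome 5, 135569937 to 135573049). It stood at 0.996, 0.431 and 0.382 FPKM in DKO and at 0.638, 4.41 and 3.54 FPKM in p21TKO, so that p21TKO replicate 1 lay within the DKO range. The log2 difference was 1.12 (SE 0.45, limma adjusted p = 0.523), and 1.65 (SE 0.22) without that library. The other ligands of eosinophil and type 2 responses were scarce. Ccl17 had at most 7 reads, Ccl22 at most 5 and Ccl11 at most 3 in a library, and Ccl1 and Ccl26 had none.

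**Figure D2:**
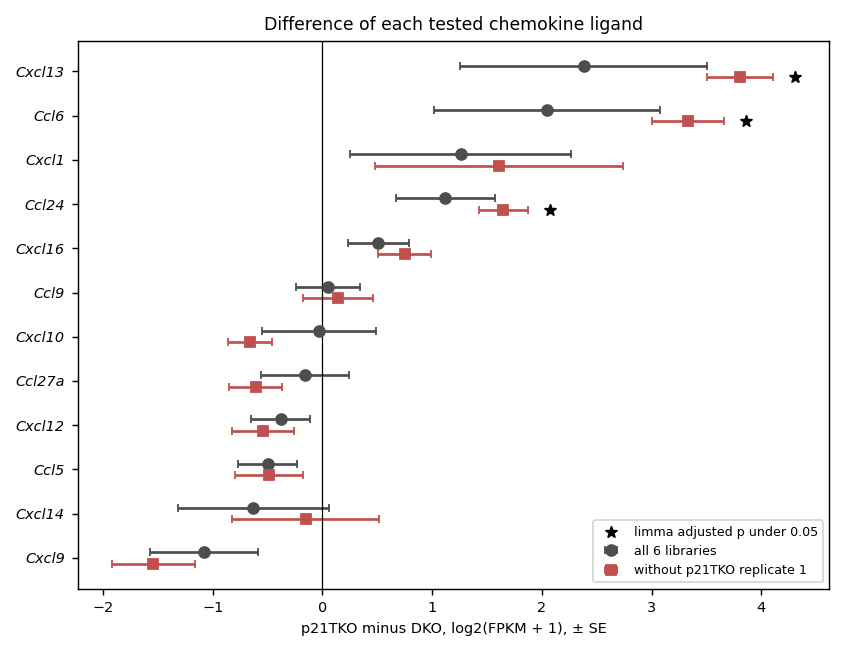
Difference between p21TKO and DKO on the log2(FPKM + 1) scale for each tested ligand, with its SE, from all 6 libraries (grey circles) and without p21TKO replicate 1 (red squares). A star marks limma adjusted p under 0.05, which only Cxcl13, Ccl6 and Ccl24 reach, and only without that library.

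The summed level of macrophage markers was also highest in p21TKO replicates 2 and 3, which held the highest values of 7 of the 11 genes. The 11 Kupffer cell and macrophage markers, all of which were tested, summed to 126, 87.5 and 55.0 FPKM in DKO and to 41.7, 377 and 207 FPKM in p21TKO. All 11 had higher values in p21TKO and 0 were called (median log2 difference 0.49, limma adjusted p from 0.614 to 0.971). Without p21TKO replicate 1, 2 of the 11 were called higher, among them Marco, a scavenger receptor gene at 2.94, 2.87 and 0.725 FPKM in DKO and 0.161, 26.3 and 45.1 FPKM in p21TKO (3.58, limma adjusted p = 0.0131), where 2.36% of all genes were called higher. Marco had the largest difference of the 11 in that fit. Clec4f, a Kupffer cell marker, had the smallest (0.55, limma adjusted p = 0.594). Clec4f stood at 20.1, 16.5 and 8.65 FPKM in DKO and at 7.32, 40.1 and 11.2 FPKM in p21TKO. For Ccl6, Cxcl13 and Marco p21TKO replicate 3 was the highest library, while the marker sum was highest in p21TKO replicate 2. Monocyte markers summed to 0.676 to 1.17 FPKM in DKO and to 0.946, 22.1 and 7.36 FPKM in p21TKO. The 8 sinusoidal endothelial markers gave 11.7 to 21.1 and 8.03, 72.2 and 35.8 FPKM. The 10 acute phase genes gave 7355 to 10768 FPKM in DKO and 5923, 44132 and 31474 FPKM in p21TKO. The part of these cells and of the acute phase in the values of Ccl6, Cxcl13 and Ccl24 was not tested.

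**Figure D3:**
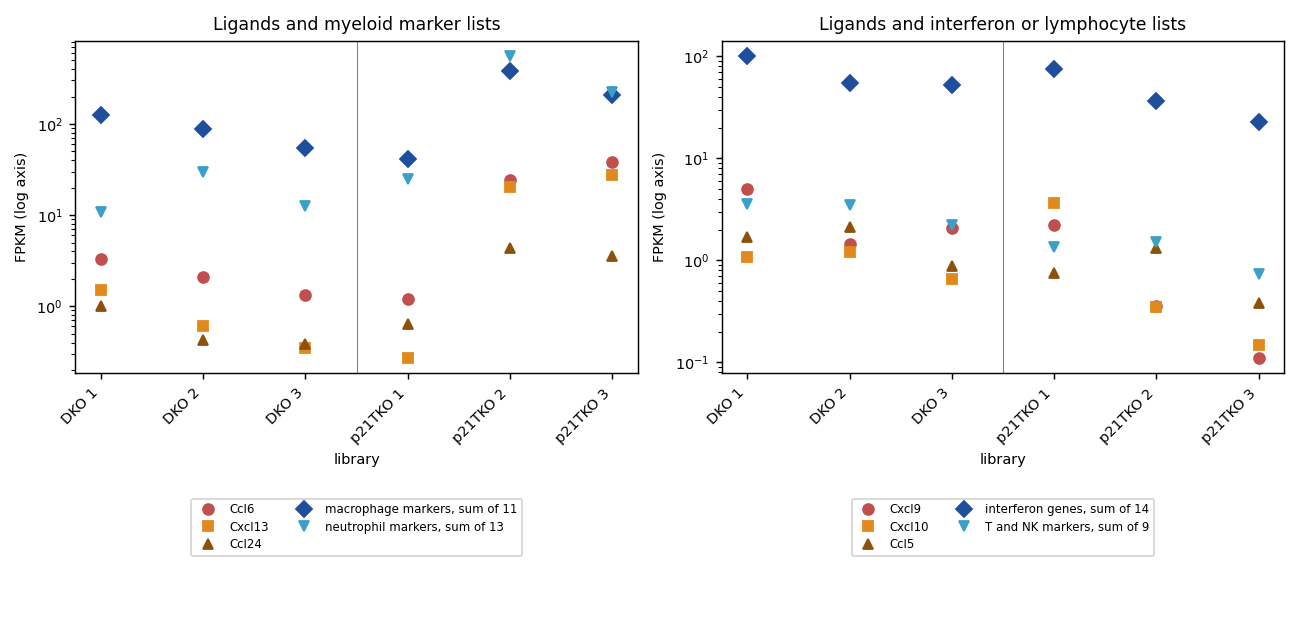
FPKM by library on a log axis for 3 ligands and 2 marker sums in each panel, with DKO left and p21TKO right of the vertical line. In the left panel Ccl6, Cxcl13 and Ccl24 are highest in p21TKO replicates 2 and 3. So are the sums of macrophage (377 and 207 FPKM) and neutrophil markers (559 and 222 FPKM). In the right panel Cxcl9, Cxcl10 and the sum of the interferon genes are lowest in those libraries. Ccl5 and the sum of T and NK markers are not. For them p21TKO replicate 2 (1.32 and 1.51 FPKM) lies above p21TKO replicate 1 (0.753 and 1.35 FPKM).

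Cxcl12, the CXCR4 ligand that stromal and endothelial cells make and that retains blood progenitors and lymphocytes, was second to Cxcl1 in mean level (ENSMUSG00000061353, chromosome 6, 117168535 to 117181367). It stood at 47.4, 33.8 and 43.6 FPKM in DKO and at 39.6, 33.9 and 23.2 FPKM in p21TKO. Only p21TKO replicate 3 lay below the DKO range, and the log2 difference was -0.38 (SE 0.27, limma adjusted p = 0.637) and -0.17 without that library.

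Cxcl14, a CXC chemokine of epithelia and hepatocytes, stood at 1.12, 10.3 and 5.30 FPKM in DKO and at 0.763, 5.01 and 2.83 FPKM in p21TKO (ENSMUSG00000021508, chromosome 13, 56288643 to 56296551). Both groups spanned a wide range with replicate 1 lowest, and the log2 difference of -0.63 (SE 0.69) was not called (limma adjusted p = 0.753). It was -0.09 without DKO replicate 2, -0.15 without p21TKO replicate 1 and -1.29 without DKO replicate 1. Cxcl16, a membrane-anchored ligand of CXCR6 that guides NKT cells along the sinusoids, stood at 1.36, 1.22 and 0.775 FPKM in DKO and at 1.13, 3.36 and 1.88 FPKM in p21TKO (ENSMUSG00000018920, chromosome 11, 70453983 to 70459984). Replicates 2 and 3 of p21TKO lay above DKO, and the log2 difference was 0.51 (SE 0.28, limma adjusted p = 0.574). Its exons overlap those of Zmynd15 on the other strand by 552 bases, and Zmynd15 averaged 0.281 FPKM. Of the remaining CXC genes, Cxcl17 had 8 reads in p21TKO replicate 3 and none elsewhere, and Cxcl15 had none.

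The homing and epithelial CC chemokines held 15 rows, 8 of them without a read in any library. Ccl27a, a CCR10 ligand known from skin, stood at 1.86, 2.91 and 1.5 FPKM in DKO and at 4.04, 1.26 and 0.746 FPKM in p21TKO (ENSMUSG00000073888, chromosome 4, 41769467 to 41774247). The p21TKO libraries lay on both sides of DKO, and the log2 difference was -0.16 (SE 0.40, limma adjusted p = 0.900). Ccl27a has near copies listed as Ccl27b and Ccl27, so reads could be divided among them and its level is uncertain. Its exons also overlap those of Il11ra1, at 6.05 FPKM on average, by 8 bases on the other strand. Ccl25, the CCR9 ligand of gut and thymus, had 38 to 71 reads per library, with 0.341, 0.375 and 0.429 FPKM in DKO and 0.486, 0.222 and 0.223 FPKM in p21TKO. Ccl28 had at most 4 reads, and Ccl20 had none. The lymphoid ligands Ccl19 and Ccl21 are listed as several rows for near-identical copies, of which 1 row each of Ccl21a and Ccl21b held any read, at most 5.

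Of the CX3C and C classes, Cx3cl1, the membrane-bound ligand called fractalkine, had 10, 10 and 0 reads in DKO and 14, 21 and 15 in p21TKO. Xcl1, which NK and T cells make to attract cross-presenting dendritic cells, had at most 3. In all, 13 of the 45 members were at 0 in every library, where 3 reads would have given between 0.0317 and 0.549 FPKM, a limit that covers counting error only. A further 20 were above 0 but under the level needed for the test, and 15 of these never exceeded 8 reads. Among the 20, Ccl7, Cx3cl1 and Ccl28 had higher values in p21TKO with no overlap, each at no more than 21 reads in a library. They were picked out after their values were seen. Of all tested genes, which have higher levels, 6.93% showed no overlap in that direction. For the 15 with 8 reads or fewer the depth allows little to be said of differences.

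**Figure D4:**
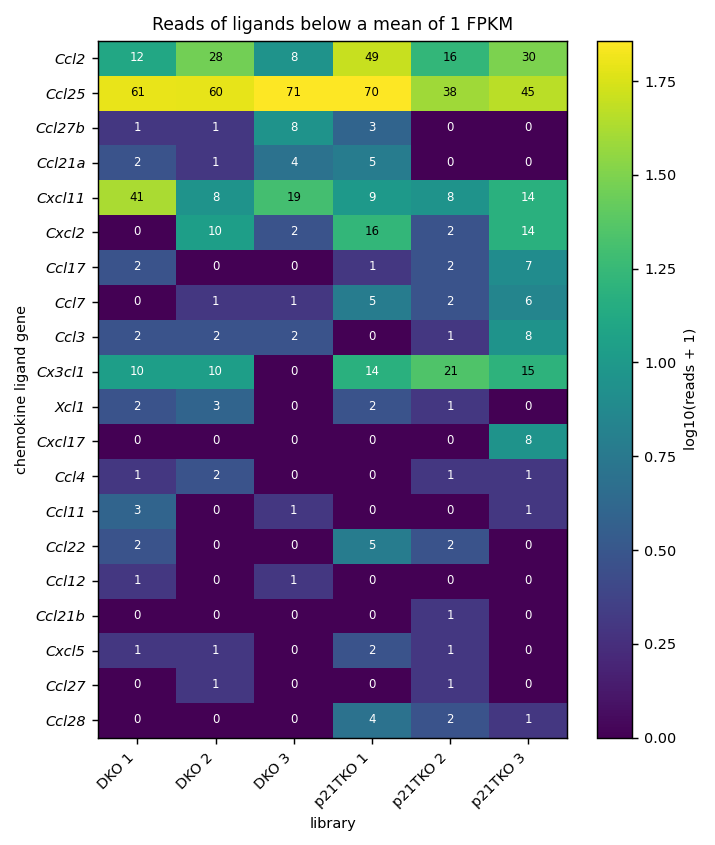
Reads recovered from the deposited FPKM for the 20 ligands above 0 but below a mean of 1 FPKM, genes in rows, the 6 libraries in columns, colour on a log10(reads + 1) scale and the read number in each cell (rounded for Ccl27b and Ccl21b, whose values did not come out whole). Ccl25, Ccl2, Cxcl11 and Cx3cl1 hold most of the reads, up to 71, and 15 of the 20 rows never exceed 8.

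The receptors were low in every library. All 18 chemokine receptor genes had reads, none had a mean of 1 FPKM, and none could be tested. Their summed FPKM was 2.31, 2.40 and 1.93 in DKO and 1.49, 6.11 and 2.47 in p21TKO. Cxcr2, the receptor for Cxcl1 and a neutrophil gene, stood at 0.0546, 0.503 and 0.162 FPKM in DKO and at 0.102, 2.53 and 0.812 FPKM in p21TKO. Ccr1, the receptor for Ccl6 and Ccl9, stood at 0.0441, 0.230 and 0.0476 FPKM in DKO and at 0.0911, 1.08 and 0.365 FPKM in p21TKO. For both, p21TKO replicate 2 was the highest library, whereas Ccl6 was highest in replicate 3. Cxcr6, the receptor for Cxcl16, was chosen after its values were seen. It stood at 0.366, 0.289 and 0.280 FPKM in DKO and at 0.134, 0.0677 and 0.0957 FPKM in p21TKO, with no overlap. Its reads were 17, 12 and 12 in DKO and 5, 3 and 5 in p21TKO. Of all tested genes, which have higher levels, 8.49% showed no overlap in that direction. The list of atypical receptors held 5 genes, most of which take up chemokines without signalling to movement. Among the 5, Ccrl2 reached 1.12 FPKM in p21TKO replicate 3 and stood between 0.0894 and 0.755 FPKM elsewhere. Ackr3, which takes up Cxcl12, stood at 0.0497, 0.0833 and 0.121 FPKM in DKO and at 0.139, 0.729 and 0.651 FPKM in p21TKO. Both were higher in p21TKO with no overlap, as were 6.93% of all tested genes, which have higher levels. Both were chosen after their values were seen. The separation rests on few reads. Ackr3 had 9 reads in DKO replicate 3 and 9 in p21TKO replicate 1. Ccrl2 had 17 in DKO replicate 1 and 16 in p21TKO replicate 1.

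Cytokine and NF-kB feedback genes that lie upstream of many chemokines had 10 of 19 members tested, 8 with higher and 2 with lower values in p21TKO, and 0 called (median log2 difference 0.27, limma adjusted p from 0.523 to 0.971). Among those too low for the test, Tnfaip3 stood at 0.219, 0.592 and 0.367 FPKM in DKO and at 1.16, 2.38 and 0.864 FPKM in p21TKO. Tnfaip3, Relb and Il6, picked out after their values were seen, were higher in p21TKO with no overlap. Il6 had 1 read in p21TKO replicate 1. The other untested genes of the list overlapped. Of all tested genes, which have higher levels, 6.93% showed no overlap in that direction. Il1b, the gene of interleukin-1 beta, stood at 0.306, 1.02 and 1.01 FPKM in DKO and at 0.867, 2.60 and 3.55 FPKM in p21TKO (0.84, limma adjusted p = 0.523). Icam1, an adhesion molecule for leukocytes, stood at 2.22, 1.68 and 2.41 FPKM in DKO and at 1.09, 10.1 and 6.20 FPKM in p21TKO, and was the 1 member called without p21TKO replicate 1 (1.53, limma adjusted p = 0.0238), where 2.36% of all genes were called higher. The 10 heparan sulfate and syndecan genes, whose products hold chemokines on cell surfaces, were all tested, with 6 higher and 4 lower values and 0 called (median 0.06, limma adjusted p from 0.600 to 0.957).

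Within libraries without Y-linked transcripts (DKO replicate 1 against p21TKO replicates 2 and 3) the log2 difference was 2.86 for Ccl6, 3.29 for Cxcl13, 1.31 for Ccl24 and -2.29 for Cxcl9. Within those with them (DKO replicates 2 and 3 against p21TKO replicate 1) it was -0.28, -0.22, 0.22 and 0.23 in the same order. For Cxcl1 the values were 3.58 and -0.42, for Cxcl10 -0.75 and 1.28 and for Cxcl14 1.18 and -2.25. The test of this difference, an interaction term in limma, passed for 0 of the 12 members, against 0.136% of all genes (smallest limma adjusted p = 0.0703, for Cxcl13). Before adjustment 8 of the 12 were under 0.05, against 7.38% of all genes. With 1 library on 1 side of each comparison, sex cannot be told apart from whatever else sets single libraries apart.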

How the data were processed

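Liver polyA RNA was profiled in 6 libraries, 3 per genotype. The authors deposited 1 FPKM value per gene and library. The submitters' processing notes list the aligner HISAT2 2.0.5 and the counter featureCounts 1.5.0-p3, beside fastp, CASAVA 1.8 and DESeq2 1.20.0. They name human builds (GRCh38, hg38) for a table of mouse identifiers, which leaves the build of the alignment unknown. Whether counting used strand is not stated. GENCODE M21 (GRCm38) supplied coordinates by gene identifier for 55480 of 55573 genes, all 45 members among them.

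Multiplying FPKM by union exon length gave whole reads, to within 0.02, for 99.3% of values once divided by a library's constant, and hence the denominators. For 43 of 45 members all reads were whole. FPKM were used unscaled. Genes with a mean of at least 1 FPKM entered a limma 3.58.1 fit on log2(FPKM + 1) in R 4.3.3 (two-sided, with a mean-variance trend), adjusted by Benjamini-Hochberg over all of them, and called under 0.05. The fit was tested on simulated data. The log2(FPKM + 1) scale understates differences of low genes.

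Members and lists were chosen with earlier results of these data known. Every tested member is named, with a few genes from the other tested lists, not always those with the smallest p. With all 6 libraries, other genes of their lists had a smaller p than Marco, Ifit3, Icam1 and Il1b. Marco, Ifit3 and Icam1 are genes called only without p21TKO replicate 1. Receptor genes, none of which was tested, were named after their values were seen. Promoters were matched by symbol in the RefSeq table (27 of 40 symbols). Alternatives were the pseudocount, filter, scaling, variance model, replicate block, sex term, voom, and each library left out. A total without mitochondrial genes and a filter on any library were added after the data were seen. Figures used matplotlib 3.10.9.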

Additional observations from a re-analysis of the deposited data

How the results depend on the processing

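The count of ligands called higher was 0 in all alternatives tried except without p21TKO replicate 1, so leaving out 1 library gave 0 to 3, and 0 ligands were called lower in any. No receptor entered the fit at a mean of 1 FPKM, so their 0 says nothing there. With no filter 18 receptors were tested, at a mean of at least 0.1 FPKM 8, and at 1 FPKM in any library 2, with 0 called. The median log2 difference of tested ligands was 1.26 at a mean of at least 5 FPKM, where 5 ligands remain, and lay between -0.17 and 0.25 otherwise. Genes called over the whole table numbered 7 in the reported fit, 1 with no filter, 4 at a mean of at least 5 FPKM, 1 with voom, and 1 to 495 with 1 library left out (495 without p21TKO replicate 1, 4 without DKO replicate 1, 1 without DKO replicate 3, 2 and 3 without p21TKO replicates 2 and 3). With the replicate number as a block 0 genes were called. Same-numbered libraries did not deviate together (correlation of deviations -0.439, -0.487 and -0.072), so no pairing by number was seen. Replicates 1 and 2 differ between the groups in Y-linked transcripts, so these values cannot decide whether same-numbered libraries were paired. Of 233 values of single ligands under the alternatives, 219 kept their sign and stayed uncalled, 3 gained a call (Ccl6, Cxcl13 and Ccl24 without p21TKO replicate 1) and 11 changed sign. Those were Ccl9 (-0.06 with a sex term, -0.16 without DKO replicate 3 and -0.16 without p21TKO replicate 3), Ccl27a (0.08 with a sex term, 0.02 without DKO replicate 2, 0.16 without p21TKO replicate 3) and Cxcl10 (0.27 with a sex term, 0.02 and 0.05 without DKO replicates 1 and 2, 0.23 and 0.35 without p21TKO replicates 2 and 3). With 1 library left out, the values ran from -0.16 to 0.18 for Ccl9, -0.61 to 0.16 for Ccl27a and -0.66 to 0.35 for Cxcl10. They ran from 0.28 to 2.40 for Cxcl1, 1.56 to 3.81 for Cxcl13, 1.24 to 3.33 for Ccl6, 0.79 to 1.65 for Ccl24, 0.24 to 0.75 for Cxcl16, -1.54 to -0.70 for Cxcl9 and -0.71 to -0.32 for Ccl5. Cxcl1 exceeded Cxcl13 with a sex term (1.58 against 1.54) and without DKO replicate 2 (2.40 against 2.31). The cause was not tested. With 3 libraries a group and ligands that vary more than 10 times within one, small differences could not be detected.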

Other observations

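Chemokine genes outside the naming rule were also read. Pf4, the platelet chemokine CXCL4, stood at 0.404, 1.10 and 0.687 FPKM in DKO and at 1.15, 1.39 and 2.46 FPKM in p21TKO, with no overlap between the groups, and was not called (log2 difference 0.61, limma adjusted p = 0.523). Groups that did not overlap in that direction were seen for 6.93% of all tested genes. Ppbp, the other gene listed, stood at 0.269, 1.85 and 0.415 FPKM in DKO and at 0.477, 0.201 and 0.0341 FPKM in p21TKO. Its mean was lower in p21TKO, its groups overlapped, and it was too low for the test. The 6 platelet markers, Pf4 among them, summed to 1.24 to 4.68 FPKM in DKO and 2.40 to 3.09 FPKM in p21TKO. Ccl19-ps3, a pseudogene left out for its hyphen, had 9, 1 and 0 reads in DKO and 8, 20 and 3 in p21TKO, more than any row of Ccl19, which had none.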
